A study of Saccharomyces cerevisiae with 18 samples.

Results

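The 10 ORFs described here belong to the general stress response of budding yeast. They are CTT1 (YGR088W), DDR2 (YOL052C-A), DDR48 (YMR173W), YMR173W-A, YGP1 (YNL160W), SOL4 (YGR248W), GND2 (YGR256W), FMP48 (YGR052W), HOR7 (YMR251W-A) and ALD3 (YMR169C). They were selected on their names and on their ratios of null over wild type on these arrays, which were already known, so those ratios are given as a description and no count of them supports anything. All 10 were found among the 6205 ORFs of the deposited table, 9 under their own systematic name and DDR2 as YOL053C-A, a name that the RefSeq gene table of the R64 assembly lists as its synonym. Saccharomyces cerevisiae cells lacking DOT4 (dot4 null, UCC6390), UBP8 (ubp8 null, UCC6392) or both genes (dot4ubp8 null, UCC6393, called the double null below) were grown in YEPD, a rich glucose medium. Total RNA of each null strain was hybridised together with total RNA of the wild type strain UCC6389 on arrays with 2 channels. Each genotype had 3 numbered sets, and a set held 1 array with the null RNA in channel 2 and 1 with it in channel 1, which gave 18 arrays. The labels name 1 strain per genotype and do not say whether the sets were separate cultures, so errors and p-values measure the spread between these sets, which may be technical.

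Yeast cells that meet heat, oxidants, salt or nutrient shortage switch on a common group of genes. Much of this response runs through the paralogous transcription factors Msn2 and Msn4, which bind the stress response element in promoters and are held back by protein kinase A in cells growing on glucose. Dot4, now called Ubp10, and Ubp8 are deubiquitinating enzymes whose substrates include histone H2B, and Ubp8 works as part of the SAGA coactivator.

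Values below are on the log2 scale, null over wild type, after each array was centred on its median. Errors are the standard error (SE) of a linear model fitted over all ORFs with limma, with n = 3 set means per genotype. An ORF is called where its adjusted p in that model is under 0.05. Set means average the arrays of both orientations. As deposited, the 18 array medians lay between -0.18 and 0.30. The direction was read from the deleted genes: on the arrays of strains lacking it, UBP10 (the current name of DOT4) lay between -5.57 and -4.27 in the dot4 null and between -5.58 and -3.88 in the double null. UBP8 lay between -3.25 and -2.31 in the ubp8 null and between -3.79 and -1.49 in the double null. Read in the labels' own order of strains, every sign would be turned. The double null array of set 3 whose label carries the strain number UCC6392 read -4.67 for UBP10 and -3.38 for UBP8. Both genes were thus low on it, whereas UBP10 lay between -0.27 and -0.05 on the ubp8 null arrays.

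The 10 stress genes did not move as a block. Loss of Dot4 left 4 of 10 lower and 2 higher, near the 32.1% and 29.9% of all ORFs called there. The dot4 null calls of CTT1, FMP48 and HOR7 were absent with channel 2 alone. Loss of Ubp8 left 8 of 10 moderately higher (30.0% of all ORFs), and loss of both left 7 of 10 higher (35.3%), up to 3.15-fold for FMP48. YGP1 was lower in all 3 strains. In bulk RNA, less RNA per cell and fewer cells that carry it cannot be told apart. The 10 genes had a median of -0.14 without Dot4 (-0.047 where arrays were not centred), 0.31 without Ubp8 and 0.47 without both, against a median over all 6205 ORFs that was within 0.01 of 0 in each.

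In the dot4 null, CTT1 and FMP48 were called higher and DDR48, YMR173W-A, YGP1 and HOR7 lower, while DDR2, SOL4, GND2 and ALD3 were not called. Over all ORFs, 29.9% were called higher and 32.1% lower. Without centring that split was 1805 higher and 563 lower in place of 1857 and 1993, and the same numbers of stress genes, 2 and 4, were called. Among the calls, 3 stress genes were at least 1.5-fold lower, against 0.951% of all ORFs, and 0 were at least 1.5-fold higher, against 1.84%. The 3 were DDR48, YMR173W-A and YGP1, and 2 remained without YMR173W-A, which overlaps DDR48. In the ubp8 null, 8 were called higher and YGP1 lower, and GND2 was not called. The shares of all ORFs were 30.0% and 28.7%. FMP48 alone reached a 1.5-fold increase there (0.419% of all ORFs), and 0 were 1.5-fold lower (0.338%). In the double null, 7 were called higher and YGP1 lower, and DDR48 and YMR173W-A were not called. The shares of all ORFs were 35.3% and 35.2%. CTT1, DDR2, SOL4, FMP48 and HOR7 were at least 1.5-fold higher (5.66% of all ORFs) and YGP1 was at least 1.5-fold lower (1.95%). These shares are printed beside the counts only as background, since these comparisons took part in choosing the genes.

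**Figure D1:**
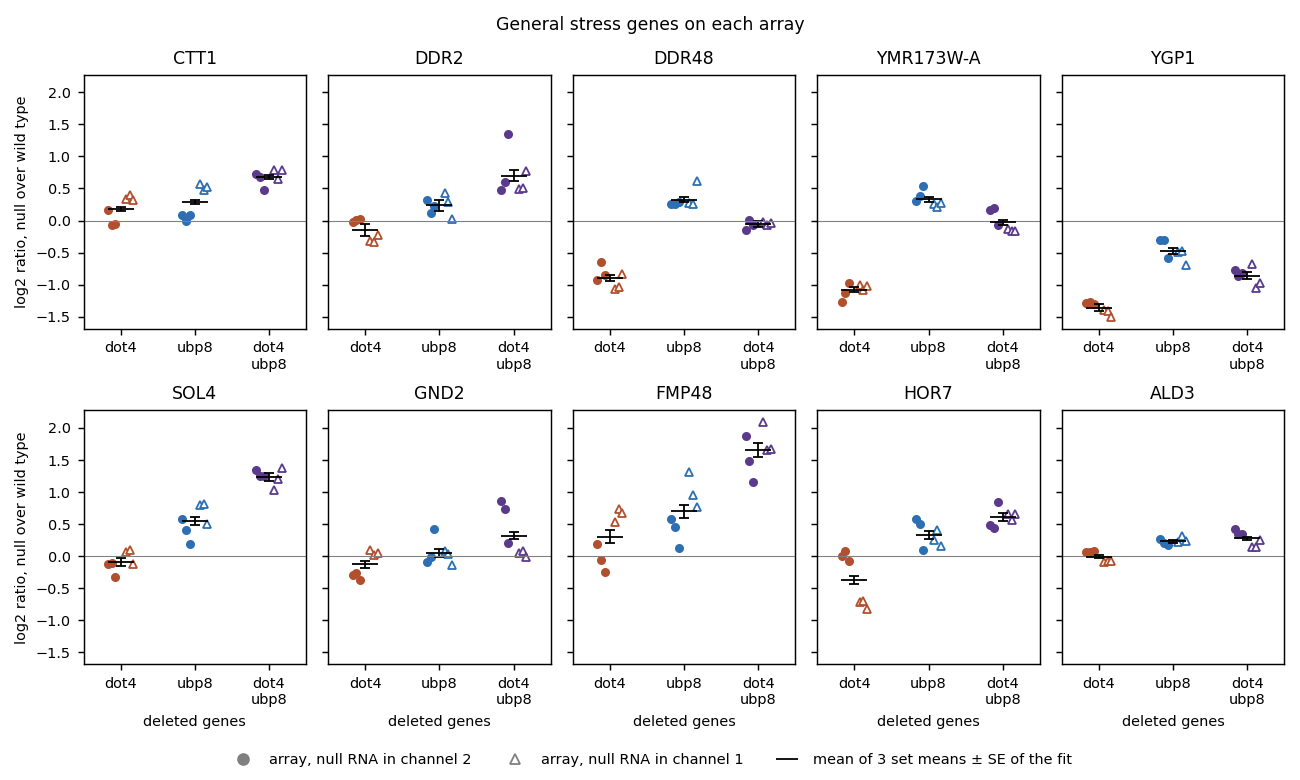
Log2 ratio of null over wild type (vertical axis) of each of the 10 genes on the 6 arrays of each strain, with filled circles for arrays with the null RNA in channel 2, open triangles for channel 1, and bars for the mean of 3 set means ± SE. SOL4 and FMP48 climb from the dot4 null over the ubp8 null to the double null, with means of 1.24 and 1.66 in the last, while DDR48 and YMR173W-A are low in the dot4 null and YGP1 lies below 0 on all 18 arrays.

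CTT1 encodes cytosolic catalase T, which breaks down hydrogen peroxide. Its 3 set means were 0.25, 0.17 and 0.13 in the dot4 null, with single arrays from -0.07 over a median of 0.25 to 0.40. The ubp8 null gave 0.33, 0.23 and 0.30, with arrays from -0.01 over 0.28 to 0.57. The double null gave 0.75, 0.67 and 0.63, with arrays from 0.47 over 0.71 to 0.79. All 6 double null arrays were above 0, and 5 of 6 ubp8 null and 4 of 6 dot4 null arrays were. The means were 0.18 ± 0.03 for dot4, 0.29 ± 0.03 for ubp8 and 0.68 ± 0.03 for the double null, the last a 1.61-fold increase. The highest ubp8 null array lay above the lowest double null array. In both single nulls the value came from 1 orientation, 0.36 and 0.52 with the null RNA in channel 1 against 0.01 and 0.05 in channel 2. CTA1, the peroxisomal catalase, behaved differently: it was at 0.11 ± 0.04 in the dot4 null, a call (adjusted p = 0.0347), and at -0.04 ± 0.04 in each of the other strains, where it was not called.

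DDR48 encodes a stress protein first known for its induction by DNA damage and heat. Its 3 set means were -1.0, -0.85 and -0.84 in the dot4 null, with arrays from -1.07 over a median of -0.89 to -0.65. For the ubp8 null they were 0.26, 0.26 and 0.45, with arrays from 0.25 over 0.27 to 0.62. Set means of the double null were -0.08, -0.03 and -0.05, with arrays from -0.14 over -0.05 to 0.01. The 3 strains did not overlap on any array. DDR48 fell 1.86-fold in the dot4 null (-0.90 ± 0.04), where it had the 18th lowest value of 6205 ORFs, rose in the ubp8 null (0.32 ± 0.04) and was at -0.05 ± 0.04 in the double null (95% interval -0.15 to 0.04, adjusted p = 0.275).

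YMR173W-A overlaps DDR48, so its spots may report the same RNA and the pair is not independent evidence. Its means were -1.08 ± 0.04 in the dot4 null, a 2.12-fold decrease, 0.33 ± 0.04 in ubp8 null cells and -0.03 ± 0.04 in the double null (adjusted p = 0.538). On single arrays it lay between -1.26 and -0.98 in the dot4 null, between 0.22 and 0.54 in the ubp8 null and between -0.17 and 0.20 in the double null. DDR48 and YMR173W-A had the same sign on 6 of 6 arrays of each single null and on 5 of 6 of the double null.

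YGP1 encodes a secreted glycoprotein made when nutrients run short. Its 3 set means were -1.33, -1.34 and -1.41 in the dot4 null, with arrays from -1.51 over a median of -1.35 to -1.27. The ubp8 null gave -0.40, -0.39 and -0.63, with arrays from -0.69 over -0.49 to -0.30. Set means of the double null were -0.72, -0.96 and -0.89, with arrays from -1.05 over -0.84 to -0.67. YGP1 was thus below the wild type on every array, lowest in the dot4 null, and the dot4 null arrays did not overlap with those of either other strain. The mean was -1.36 ± 0.05 (2.57-fold lower) for dot4, -0.47 ± 0.05 (1.39-fold lower) for ubp8 and -0.86 ± 0.05 (1.81-fold lower) for the double null. Each of these calls was made in either orientation alone. SPS100, a sporulation gene whose product resembles Ygp1, had the opposite sign in all 3 strains, at 0.58 ± 0.04 in the dot4 null, 0.22 ± 0.04 in ubp8 null cells and 0.89 ± 0.04 in the double null.

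SOL4 and GND2 encode a 6-phosphogluconolactonase and a 6-phosphogluconate dehydrogenase, consecutive enzymes of the oxidative pentose phosphate pathway, which makes NADPH. The 3 set means of SOL4 were -0.03, -0.01 and -0.22 in the dot4 null, 0.70, 0.62 and 0.34 in ubp8 null cells and 1.18, 1.23 and 1.31 in the double null. Single arrays ran from -0.33 to 0.10 (median -0.12) in the dot4 null, from 0.18 to 0.82 (median 0.54) in the ubp8 null and from 1.03 to 1.37 (median 1.26) in the double null. The strains did not overlap. SOL4 rose 2.37-fold in the double null (1.24 ± 0.06), the 27th highest value of 6205 ORFs, and rose in the ubp8 null (0.55 ± 0.06), but was at -0.09 ± 0.06 in the dot4 null (adjusted p = 0.246).

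GND2 showed smaller values, which differed between sets and orientations. Its 3 set means were -0.10, -0.12 and -0.16 in the dot4 null, -0.01, 0.01 and 0.15 in ubp8 null cells and 0.46, 0.41 and 0.10 in the double null. Double null arrays ran from -0.01 to 0.87 with a median of 0.14, and overlapped with the ubp8 null arrays, which ran from -0.13 to 0.42 with a median of 0.01. In the dot4 null they ran from -0.37 to 0.10 with a median of -0.12. GND2 was called higher in the double null (0.32 ± 0.06), with 0.60 from arrays with the null RNA in channel 2 and 0.04 from those in channel 1, where the call ended (adjusted p = 0.384). It was at -0.13 ± 0.06 in the dot4 null (adjusted p = 0.0813, and called without set 3, adjusted p = 0.0155) and 0.05 ± 0.06 in the ubp8 null (adjusted p = 0.495). With each genotype fitted alone, GND2 was called lower in the dot4 null (adjusted p = 0.00414 in limma).

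GND1 and SOL3, the paralogs that carry most of these activities in growing cells, fell in the double null. GND1 was at -0.30 ± 0.04 in the dot4 null, 0.09 ± 0.04 in ubp8 null cells and -0.12 ± 0.04 in the double null, all 3 of them called. SOL3 was at -0.02 ± 0.03, 0.08 ± 0.03 and -0.20 ± 0.03 in the same strains, with a call only in the double null. The more distant relatives SOL1 and SOL2 were at 0.29 ± 0.04 and -0.11 ± 0.04 in the double null. Paralogous transcripts may cross-hybridise on arrays, and no source used here names the probes.

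Of the 11 listed genes of the pentose phosphate pathway, which include SOL4 and GND2, 2 rose and 5 fell in the dot4 null, 5 rose and 2 fell in the ubp8 null, and 4 rose and 5 fell in the double null. Their medians were -0.10, 0.08 and -0.04 in that order. Of all ORFs, 29.9% were called higher and 32.1% lower in the dot4 null, 30.0% and 28.7% in the ubp8 null, and 35.3% and 35.2% in the double null, so several of these counts lie near the share over all ORFs. Within the double null the largest changes after SOL4 were increases of NQM1 (1.16 ± 0.04), a transaldolase paralog, and TKL2 (0.78 ± 0.04), a minor transketolase, and a decrease of TAL1 (-0.59 ± 0.03), the main transaldolase.

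DDR2 and HOR7 encode short, related proteins of unknown function that are made under many stresses. The 3 set means of DDR2 were -0.17, -0.17 and -0.10 in the dot4 null, 0.38, 0.20 and 0.13 in ubp8 null cells and 0.48, 0.56 and 1.06 in the double null. Single arrays ran from -0.34 to 0.03 (median -0.13) in the dot4 null, from 0.03 to 0.43 (median 0.26) in the ubp8 null and from 0.47 to 1.35 (median 0.56) in the double null. Every double null array was above every array of the single nulls. DDR2 rose in the double null (0.70 ± 0.09, 1.62-fold), and the array labelled UCC6392 gave its highest value. Without that array the mean was 0.60 and was still called. DDR2 was called higher in the ubp8 null (0.23 ± 0.09, adjusted p = 0.0421). That call ended without set 1 (adjusted p = 0.213), without set 2 (adjusted p = 0.117) and with channel 2 alone (adjusted p = 0.206). In the dot4 null DDR2 was at -0.15 ± 0.09 (adjusted p = 0.172), and was called without set 3 (adjusted p = 0.0146). With each genotype fitted alone, DDR2 was called lower in the dot4 null (adjusted p = 0.00296 in limma).

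The 3 set means of HOR7 were -0.36, -0.31 and -0.45 in the dot4 null, 0.41, 0.45 and 0.13 in ubp8 null cells and 0.57, 0.50 and 0.75 in the double null. Arrays of the dot4 null ran from -0.83 to 0.08 with a median of -0.39. They ran from 0.09 to 0.58 with a median of 0.33 in the ubp8 null and from 0.44 to 0.85 with a median of 0.61 in the double null. The dot4 null lay below the other strains on every array, and the ubp8 null and double null overlapped. HOR7 rose 1.53-fold in the double null (0.61 ± 0.06) and rose in the ubp8 null (0.33 ± 0.06). In the dot4 null it was called lower at -0.37 ± 0.06, but the arrays with the null RNA in channel 1 averaged -0.75 and those with it in channel 2 averaged 0.00.

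FMP48 encodes a predicted protein kinase found with mitochondria. Its 3 set means were 0.36, 0.34 and 0.21 in the dot4 null, 0.95, 0.70 and 0.45 in ubp8 null cells and 1.99, 1.56 and 1.41 in the double null. Single arrays ran from -0.24 to 0.73 (median 0.36) in the dot4 null, from 0.13 to 1.31 (median 0.67) in the ubp8 null and from 1.16 to 2.1 (median 1.66) in the double null. The single nulls overlapped, and the lowest double null array lay below the highest ubp8 null array. FMP48 rose 3.15-fold in the double null (1.66 ± 0.10), the 5th highest value of 6205 ORFs, and 1.62-fold in the ubp8 null (0.70 ± 0.10), the 11th highest. The dot4 null value of 0.30 ± 0.10 was called (adjusted p = 0.0238), but the call ended without set 2 (adjusted p = 0.127), and channel 2 arrays alone averaged -0.04.

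ALD3 encodes a cytosolic aldehyde dehydrogenase that takes part in making beta-alanine for pantothenate. It had the smallest SE of the 10 genes, with set means within 0.02 of 0 in the dot4 null, 0.24, 0.26 and 0.21 in ubp8 null cells and 0.29, 0.25 and 0.30 in the double null. Arrays ran from -0.10 to 0.09 (median -0.01), from 0.17 to 0.32 (median 0.23) and from 0.15 to 0.43 (median 0.30) in that order. The dot4 null did not overlap with the other strains, which overlapped with each other. ALD3 rose in ubp8 null cells (0.24 ± 0.02) and in the double null (0.28 ± 0.02), and was at -0.01 ± 0.02 in the dot4 null (adjusted p = 0.813). ALD2, a close copy that lies next to it, was at -0.02 ± 0.04, 0.26 ± 0.04 and 0.43 ± 0.04 in dot4, ubp8 and double null cells, in that order, and the arrays may not tell the copies apart. Among the other aldehyde dehydrogenases, ALD4 (0.41 ± 0.06) and ALD6 (0.32 ± 0.04) rose and ALD5 fell (-0.68 ± 0.04) in the double null.

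The orientations differed for some of these genes. In the dot4 null the mean with the null RNA in channel 2 minus that in channel 1 was 0.75 for HOR7 and -0.68 for FMP48, against a median size of 0.18 over all ORFs, and 244 and 314 ORFs had a larger difference. In the ubp8 null it was -0.62 for FMP48 and -0.47 for CTT1, against a median size of 0.11, with 185 and 348 ORFs larger. For GND2 in the double null it was 0.56, with 190 ORFs larger and a median size of 0.11. DDR48, YMR173W-A and YGP1 in the dot4 null, and SOL4, FMP48, HOR7, CTT1, DDR2, YGP1 and ALD3 in the double null, were called the same way in both orientations. In the ubp8 null this held for DDR48, YMR173W-A, YGP1, SOL4, FMP48, HOR7 and ALD3, and the calls of CTT1 and DDR2 were made in channel 1 alone. A single orientation also gave calls that the mean of both did not. In the dot4 null DDR2 (-0.30) and ALD3 (-0.09) were called lower in channel 1 and SOL4 (-0.19) and GND2 (-0.31) in channel 2, and YMR173W-A was called lower in channel 1 in the double null (-0.15).

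**Figure D2:**
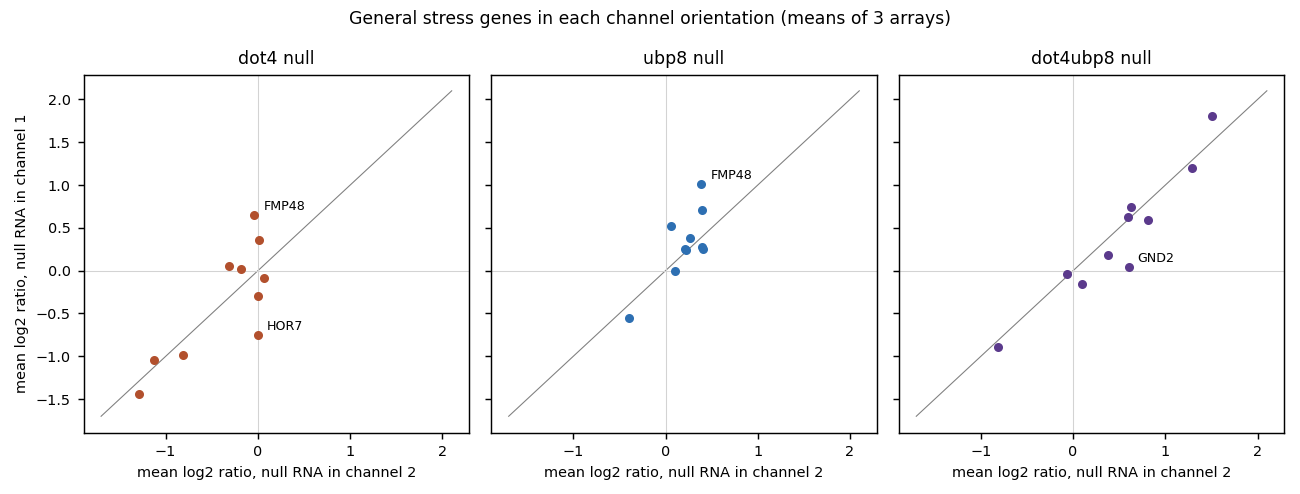
Mean log2 ratio of null over wild type of the 10 genes over the 3 arrays with the null RNA in channel 2 (horizontal axis) and over the 3 with it in channel 1 (vertical axis), for each strain, with the line of equality. Points with names differ by more than 0.5 between orientations, and YGP1, at -1.29 and -1.44 in the dot4 null, lies near the line.

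The single nulls were compared directly in the same model. The difference, dot4 null minus ubp8 null, was below 0 for all 10 genes and was called for 8, against 30.2% of all ORFs called lower and 27.9% called higher. Without centring that split over all ORFs was 1432 higher and 481 lower in place of 1731 and 1873. YMR173W-A (-1.41 ± 0.05), DDR48 (-1.22 ± 0.06), YGP1 (-0.89 ± 0.07), HOR7 (-0.71 ± 0.09) and SOL4 (-0.64 ± 0.09) differed most. FMP48 (-0.39 ± 0.14), DDR2 (-0.38 ± 0.13) and ALD3 (-0.24 ± 0.03) followed. CTT1 differed by -0.10 ± 0.05 (95% interval -0.21 to 0.00, adjusted p = 0.0844) and GND2 by -0.18 ± 0.08 (-0.36 to 0.01, adjusted p = 0.0918). The call of ALD3 ended without centring (adjusted p = 0.355), that of FMP48 ended in either orientation alone and without set 2, and that of DDR2 ended with channel 2 alone and without set 1 or set 2. CTT1 was called with the set number as a replicate block (adjusted p = 0.0463), with arrays scaled to a common spread (adjusted p = 0.0402) and in channel 1 alone (adjusted p = 0.019). The sign was not below 0 in every alternative. GND2 was at 0.065 in channel 1 alone and CTT1 at 0.0005 without centring, neither of them called. The direction follows from the values that were known when the genes were chosen and is a description.

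The double null was also compared with the sum of the single nulls, where a difference of 0 means that the effects add on the log2 scale. The double null lay above the sum for all 10 genes, and 9 were called, against 11.9% of all ORFs called higher and 8.43% called lower. Without centring 105 ORFs were higher and 122 lower in place of 739 and 523. Among the genes that were low in the dot4 null, YGP1 was at -0.86 in the double null against a sum of -1.83 (difference 0.98 ± 0.09). YMR173W-A was at -0.03 against -0.75 (0.73 ± 0.07) and DDR48 at -0.05 against -0.57 (0.52 ± 0.07). These 3 genes were therefore closer to the wild type level in the double null than in the sum.

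Among the genes that were high in the double null, SOL4 was at 1.24 against a sum of 0.46 (difference 0.78 ± 0.11). FMP48 was at 1.66 against 1.0 (0.65 ± 0.18), HOR7 at 0.61 against -0.04 (0.65 ± 0.11), and DDR2 at 0.70 against 0.09 (0.61 ± 0.15). GND2 (0.40 ± 0.10) and CTT1 (0.21 ± 0.06) differed less, and ALD3 was not called at 0.05 ± 0.04 (95% interval -0.04 to 0.14, adjusted p = 0.425). The ALD3 difference turned to -0.030 without centring and to -0.026 with arrays scaled to a common spread, neither of them called. The calls of YGP1, YMR173W-A, DDR48 and SOL4 held in every alternative tried, and that of HOR7 in all but channel 2 alone (0.20, adjusted p = 0.377). The difference of CTT1 turned to -0.14 and that of GND2 to -0.01 in channel 1 alone, neither of them called, and without set 2 only 5 genes were called, CTT1, DDR2, GND2 and FMP48 being lost. CTT1 was also lost without either other set, and GND2 without set 1 and without the array labelled UCC6392. FMP48 was at 0.15 in channel 1 alone (adjusted p = 0.569) and at 0.37 with arrays scaled to a common spread (adjusted p = 0.177), and lost its call in both. DDR2 lost its call in channel 2 alone (adjusted p = 0.068). CTT1 and GND2 lost theirs without centring (adjusted p = 0.709 and 0.232), and with a common spread CTT1 had an adjusted p of 0.224 and GND2 was at the threshold (0.05). All 3 genotypes share the wild type strain as the other channel, and its RNA enters this difference.

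**Figure D3:**
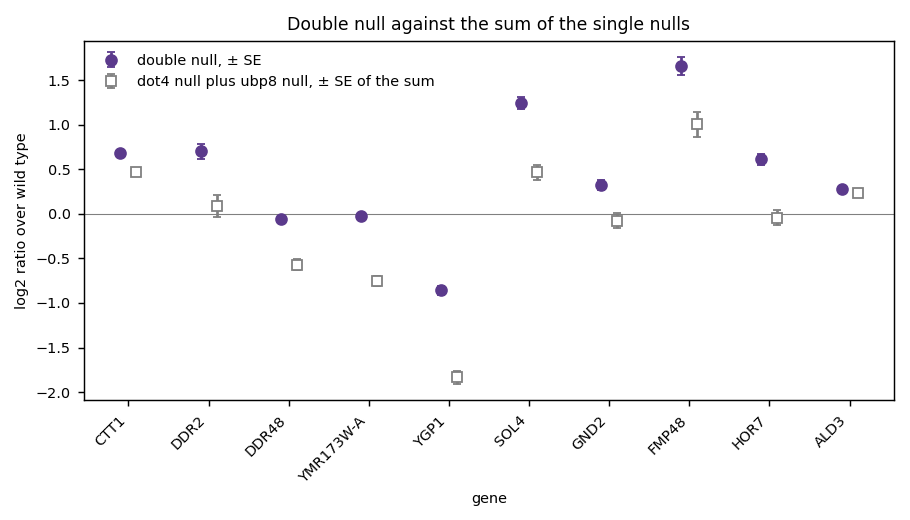
Log2 ratio over wild type (vertical axis) of each gene in the double null (circles, mean of 3 set means ± SE) and the sum of its ratios in the dot4 null and the ubp8 null (squares, ± SE of the sum). The double null lies above the sum for every gene, by 0.98 for YGP1 and by 0.05 for ALD3.

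Other genes of the stress response were taken from a list of 46 genes linked to Msn2 and Msn4. In the dot4 null 10 rose and 19 fell, with a median of -0.03, where 29.9% and 32.1% of all ORFs were called. In the ubp8 null 37 rose and 2 fell, with a median of 0.27 (30.0% and 28.7% of all ORFs). In the double null 35 rose, 20 of them at least 1.5-fold, and 2 fell, with a median of 0.54. Of all ORFs 35.3% were called higher there, 35.2% lower, and 5.66% higher by at least 1.5-fold. The largest changes in the double null were increases of the heat shock genes HSP12 (2.0 ± 0.05) and HSP26 (1.60 ± 0.06), NQM1, and the hydrophilin gene GRE1 (1.12 ± 0.05). These genes, named for their change in the double null, were among the 10 called higher in the dot4 null. HSP12 was at 0.58 ± 0.05 there, HSP26 at 0.22 ± 0.06, NQM1 at 0.34 ± 0.04 and GRE1 at 0.64 ± 0.05. More of the 46, 19 genes, were called lower there, as DDR48, YGP1 and HOR7 were, and the lowest was at -1.0.

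**Figure D4:**
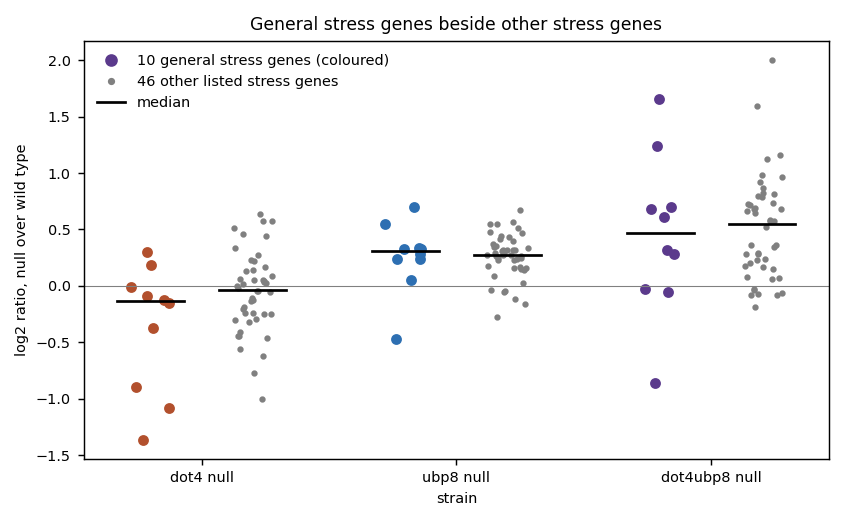
Log2 ratio of null over wild type (vertical axis) of the 10 general stress genes (coloured) and of the 46 other listed stress genes (grey) in each strain, with black lines at the medians. The medians were -0.14 and -0.03 in the dot4 null, 0.31 and 0.27 in ubp8 null cells and 0.47 and 0.54 in the double null.

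None of the listed regulators of the response was called past 1.5-fold. Of 23 listed signalling and transcription factor genes, 4 rose and 8 fell in the dot4 null, 7 rose and 7 fell in the ubp8 null, and 12 rose and 9 fell in the double null. The shares of all ORFs called higher and lower, 29.9% and 32.1%, 30.0% and 28.7%, and 35.3% and 35.2% in that order of strains, are the background of these counts and of those of the lists that follow, and 7 and 7 of 23 in the ubp8 null are near them. MSN4 rose in all 3 strains, at 0.23 ± 0.07, 0.20 ± 0.07 and 0.57 ± 0.07 in dot4, ubp8 and double null cells, in that order. The heat shock factor gene HSF1 was at 0.34 ± 0.03, and the genes of the oxidative stress regulator SKN7 (-0.37 ± 0.04) and the plasma membrane phosphatase PSR1 (-0.29 ± 0.03) were lower in the double null. Of 20 listed genes of peroxide and superoxide defence, which include CTT1, 5 rose and 12 fell in the dot4 null, 14 rose and 1 fell in the ubp8 null, and 8 rose and 7 fell in the double null. Within the double null the mitochondrial peroxiredoxin gene PRX1 rose (0.98 ± 0.04), and SOD1 (-0.52 ± 0.06), which encodes the copper-zinc superoxide dismutase, and its chaperone gene CCS1 (-0.51 ± 0.04) fell.

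A list that follows growth and one that follows glucose use were also counted. Of 137 ribosomal protein genes 133 fell in the dot4 null, 42 in ubp8 null cells and 125 in the double null, with medians of -0.32, -0.07 and -0.38. The 42 of 137 in the ubp8 null lie near the share of all ORFs called lower there. RPL22B (-1.12 ± 0.03) and RPS22B (-0.96 ± 0.06) fell most in the double null, followed by RPS0B (-0.65 ± 0.04) and RPS7B (-0.64 ± 0.03). The ribosomal protein medians differed by orientation, at -0.04, 0.15 and -0.15 in channel 2 and -0.63, -0.31 and -0.61 in channel 1 in that order of strains. Of 14 genes that glucose represses until the diauxic shift, 8 rose and 4 fell in the dot4 null, 9 rose and 1 fell in the ubp8 null, and 12 rose and 1 fell in the double null, with medians of 0.12, 0.13 and 0.26. Within the double null CAT2 (0.73 ± 0.04), IDP2 (0.56 ± 0.03) and FDH1 (0.54 ± 0.03) rose and MDH2 fell (-0.66 ± 0.03). The part of growth rate or glucose use in the values of the 10 stress genes was not tested.

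By their systematic names, 4 of the 10 ORFs (CTT1, SOL4, GND2 and FMP48) lie on the right arm of chromosome VII and 4 (DDR48, YMR173W-A, ALD3 and HOR7) on the right arm of chromosome XIII. YGP1 lies on the left arm of chromosome XIV and DDR2 on the left arm of chromosome XV. The 18 genes next to them in the RefSeq order had medians of -0.03, 0.15 and 0.14 in dot4, ubp8 and double null cells, in that order. Of the 18, 4 were at least 1.5-fold higher in the double null, against 5.66% of all ORFs, and they are named after their values were seen: YGR050C (0.90 ± 0.06) and MCO32 (0.72 ± 0.04) on either side of FMP48, PDC6 (0.79 ± 0.11) beside CTT1 and MGA1 (0.69 ± 0.07) beside SOL4.

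The ORF most like each gene was found by Pearson's r over the 9 set means among 6195 other ORFs with all values. These points fall into 3 strains and share arrays, so r is a description. SOL4 was most like PGM2 (r = 0.996), a phosphoglucomutase gene at -0.25, 0.16 and 0.52 in dot4, ubp8 and double null cells, in that order. HOR7 was most like ECI1 (0.994), ALD3 most like LOT6 (0.995), FMP48 most like IRC18 (0.993, at 0.10, 0.48 and 1.45) and CTT1 most like DPC29 (0.992). DDR48 was most like POP8 (0.993), YMR173W-A most like YOR088W (0.994), DDR2 most like YPR015C (0.981) and GND2 most like CAK1 (0.971). YGP1 was most like YPR1 (0.994), although YPR1 was at 0.26 in ubp8 null cells and 0.01 in the double null, where YGP1 was low.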

How the data were processed

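For every array the deposited table gives each ORF 1 log2 ratio. How background and normalization were handled, and which probes were printed, is not given in the sources used here. The number of arrays limits the precision. Channel 2 over channel 1 was taken as the direction, because UBP10 and UBP8 are then low in the strains lacking them. The 9 empty values and 2 stand-in values were treated as missing. Arrays were centred on their median, turned to null over wild type, and averaged within sets. Set means (9) went into lmFit and eBayes of limma 3.58.1 (R 4.3.3), with a mean per genotype and 1 spread per ORF. The Benjamini-Hochberg adjustment ran over 6205 ORFs. The procedure was tested on simulated data. Members and gene lists were chosen with earlier results of these data known. RPP1, an RNase P subunit gene that a symbol pattern had put among the ribosomal proteins, was removed for its function after its values had been seen. The naming rule took the 10 genes, UBP10, UBP8, listed sequence relatives, up to 4 called genes with the largest change in the double null from each other list, and the ORF most correlated with each gene. Symbols came from RefSeq R64, with 5705 ORFs matched by locus tag. Alternatives were no centring, a common spread, single orientations, a replicate block, separate fits, trended robust moderation, and leaving out each set or the array labelled UCC6392. Leaving out YMR173W-A or DDR2 was added after seeing the data. The planned promoter motif search was not run. Same-numbered sets had deviations correlated from -0.26 to 0.27, and sets with different numbers from -0.33 to 0.29. With 3 sets per genotype these ranges cannot tell whether the numbers are pairs. The main model did not take them as pairs.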

Additional observations from a re-analysis of the deposited data

Results flagged for a closer look

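Of 30 groups of 6 arrays, 2 had an array far from the others by Dixon's ratio, and about 1 in 20 is flagged by chance. DDR2 read 1.35 on the double null array of set 3 labelled UCC6392, against 0.77 on the next highest. DDR48 read 0.62 on a ubp8 null array of set 3, against 0.29 on the next highest.

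The dot4 null minus the ubp8 null was called for 8 genes: DDR2 (-0.38), DDR48 (-1.22), YMR173W-A (-1.41), YGP1 (-0.89), SOL4 (-0.64), FMP48 (-0.39), HOR7 (-0.71) and ALD3 (-0.24). The double null differed from the summed single nulls for 9: CTT1 (0.21), DDR2 (0.61), DDR48 (0.52), YMR173W-A (0.73), YGP1 (0.98), SOL4 (0.78), GND2 (0.40), FMP48 (0.65) and HOR7 (0.65).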

How the results depend on the processing

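Of 310 recomputed values of single genes, 291 kept their side of the threshold, and the called ones among them kept their direction. Values that were not called turned sign in some settings. These were DDR2, SOL4, GND2 and ALD3 in the dot4 null, GND2 in the ubp8 null and YMR173W-A in the double null. GND2 in the dot4 null, for example, went from -0.13 to 0.056 in channel 1 alone. With channel 2 alone, FMP48 and HOR7 in the dot4 null turned to -0.038 and 0.0023, neither called, and no gene was called higher there (0, against 2). The dot4 null median (-0.14) was -0.047 without centring and -0.19 in channel 1 alone, and 1 to 2 genes were called higher when a set was left out. The number called lower in the dot4 null (4) was 5 in channel 2 alone. It was 6 in channel 1 alone, without set 3 and with each genotype fitted alone. The ubp8 null median (0.31) was 0.34 with a common spread, 0.24 in channel 2, 0.27 in channel 1 and 0.28 to 0.29 with a set left out. The double null median (0.47) was 0.41 with a common spread, 0.60 in channel 2, 0.39 in channel 1, 0.45 to 0.48 with a set left out and 0.43 without the array labelled UCC6392. It was 0.61 without YMR173W-A and 0.32 without DDR2, both chosen after seeing the data. In channel 1 alone 2 genes were called lower in the double null, against 1. The double null minus the sum was called for 5 to 8 genes with a set left out, 7 without centring, 6 with a common spread, 7 in channel 2 and 6 in channel 1, against 9. With the set number as a replicate block, DDR2 lost its call in the ubp8 null (adjusted p = 0.0501 in limma), which left 7 genes higher there, and CTT1 gained one in the dot4 null minus the ubp8 null.

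Over all ORFs, calls without centring numbered 2368 in the dot4 null (3850 with), 1582 in the ubp8 null (3642), 1913 for the dot4 null minus the ubp8 null (3604) and 227 for the double null minus the sum (1262). The last was 531 without set 1, 225 without set 2 and 2107 in channel 2 alone, where the ubp8 null had 2287. Calls past 1.5-fold numbered 395 in channel 1 and 265 in channel 2 in the dot4 null, against 173, and 177 in channel 1, 89 with a common spread and 28 without set 1 in the ubp8 null, against 47. The causes were not tested. Signal over background is not known here, so no limit from dim spots can be given.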
